A study of Mus musculus with 3 samples.

Results

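The strong sites of both EBF1 proteins are the genomic regions with a scaled count of at least 200 in the EBF1wt library and of at least 200 in the EBF1E271A library. Of 4116 regions of 300 bp, 801 met this rule. They overlap into 407 of the 2121 loci of the series, 394 made of 2 strong regions and 13 of 1. Each locus is given below by its region of higher mean value and by the nearest protein-coding gene within 100 kb. Because the values of both libraries chose these regions, their levels and their ratios are a description and carry no test. Sequence, position and neighbouring genes were not used in the choice.

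EBF1 (early B cell factor 1) is a DNA-binding transcription factor that starts the B lineage programme in lymphoid progenitors and keeps it in place. It binds DNA as a homodimer, and its recognition site is a palindrome of CCC and GGG separated by a pair of free bases. Among its textbook targets in pro-B cells are genes of the pre-B cell receptor, such as Igll1 and Cd79a, and the transcription factor gene Pax5. Notch signalling, driven in these cells by the intracellular domain of Notch1 (NICD1), directs progenitors to the T lineage instead.

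Chromatin immunoprecipitation and sequencing (ChIP-seq) with an EBF1 antibody was done on pro-B cells of C57BL/6 background, grown from c-kit+ progenitors of Ebf1-/- fetal liver taken at E16.5. All cells carried pMYs-rtTA-Advanced-tdTomato and pRetroX-Tight-Pur-FLAG-NICD1 and had 1 µg/ml doxycycline for 6 hours without feeder cells, so every library comes from cells treated to induce NICD1 and none shows the state without it. EBF1 came back from a retrovirus with a StrepFLAG tag, either unchanged (EBF1wt) or with the substitution that its label names (EBF1E271A), so it was made from the vector and not from the Ebf1 gene. There were 3 libraries, 1 EBF1wt ChIP, 1 EBF1E271A ChIP and 1 input from cells with the EBF1wt vector, and the number of embryos behind each was not given. Cells of the EBF1-expressing human lymphoma line BJAB, added at a ratio of 10 pro-B cells to 1, set the scale between libraries. The comparison asks how far EBF1E271A occupies the sites of EBF1wt under induced NICD1. With 1 library per group there was no replicate check and no test between the proteins. Input values were not analysed here, and the files hold no expression, so the pro-B identity of the cells was not checked.

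The DNA under the strong sites can be read where they lie over promoters. The RefSeq promoter windows of GRCm38.p6 run from 250 bases before to 50 bases after a gene's start, and 24 of the 407 strong loci had their centre in such a window. The stretches below are the bases upstream of the start that lie inside the strong region, printed 5′ to 3′ on the gene's own strand. Capitals mark the most complete form of the EBF1 motif found in each stretch, searched on both strands. The whole palindrome is CCCNNGGG with T before it and A after it, the 9-base form is CCCNNGGGA or TCCCNNGGG, and the core is CCCNNGGG. Each shorter form lies inside the longer one. The first set is shown because it holds the whole palindrome close to the centre of the region.
Cd22 (chr7:30879029-30879217, minus strand): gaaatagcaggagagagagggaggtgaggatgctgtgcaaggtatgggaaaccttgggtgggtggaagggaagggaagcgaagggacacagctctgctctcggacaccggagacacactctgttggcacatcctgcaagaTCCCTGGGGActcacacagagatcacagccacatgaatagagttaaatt
Hip1r (chr5:123973378-123973554, plus strand): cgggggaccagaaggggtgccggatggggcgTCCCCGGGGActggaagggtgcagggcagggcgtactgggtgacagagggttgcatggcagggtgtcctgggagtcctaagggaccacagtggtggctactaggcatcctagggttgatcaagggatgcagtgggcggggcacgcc
Mphosph8 (chr14:56668011-56668247, plus strand): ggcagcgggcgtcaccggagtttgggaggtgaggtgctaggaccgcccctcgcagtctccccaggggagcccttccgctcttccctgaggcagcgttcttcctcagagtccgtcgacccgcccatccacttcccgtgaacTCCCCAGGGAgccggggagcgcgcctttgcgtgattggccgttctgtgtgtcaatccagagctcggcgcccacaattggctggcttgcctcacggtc
Wdr93 (chr7:79742899-79743148, plus strand): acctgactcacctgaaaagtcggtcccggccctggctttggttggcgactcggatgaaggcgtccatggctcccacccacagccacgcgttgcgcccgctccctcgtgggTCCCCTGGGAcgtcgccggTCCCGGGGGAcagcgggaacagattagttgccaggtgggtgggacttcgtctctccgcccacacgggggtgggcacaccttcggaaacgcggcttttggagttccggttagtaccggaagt
Pold4 (chr19:4231643-4231827, plus strand): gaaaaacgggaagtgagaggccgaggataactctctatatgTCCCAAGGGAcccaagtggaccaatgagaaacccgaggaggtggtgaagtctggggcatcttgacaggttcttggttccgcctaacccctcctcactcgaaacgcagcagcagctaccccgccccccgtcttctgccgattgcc
Vps26a (chr10:62486894-62487055, minus strand): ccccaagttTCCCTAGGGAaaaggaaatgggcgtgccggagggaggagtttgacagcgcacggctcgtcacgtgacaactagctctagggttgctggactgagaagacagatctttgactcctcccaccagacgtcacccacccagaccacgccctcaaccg

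Cd22, which encodes an inhibitory coreceptor of the B cell receptor, had 1 palindrome that began 49 bases upstream of the start and lay 5 bp from the centre of the region. In Hip1r, a gene of clathrin-dependent endocytosis, the palindrome lay 9 bp from the centre. It lay 5 bp from the centre in Mphosph8, which encodes a chromatin protein of gene silencing. Wdr93 held 2 palindromes, 8 bp and 11 bp to either side of the centre. In Pold4, a DNA polymerase delta subunit gene, the distance was 11 bp, and in Vps26a, a retromer subunit gene, 2 bp. The second set is shown because these sites were in the strong set with an incomplete motif or none of the forms.
Trim25 (chr11:88999193-88999402, plus strand): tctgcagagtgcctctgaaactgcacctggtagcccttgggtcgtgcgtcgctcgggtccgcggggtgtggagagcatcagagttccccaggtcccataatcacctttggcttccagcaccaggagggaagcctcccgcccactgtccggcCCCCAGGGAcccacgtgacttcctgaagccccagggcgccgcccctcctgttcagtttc
Igll1 (chr16:16864062-16864235, minus strand): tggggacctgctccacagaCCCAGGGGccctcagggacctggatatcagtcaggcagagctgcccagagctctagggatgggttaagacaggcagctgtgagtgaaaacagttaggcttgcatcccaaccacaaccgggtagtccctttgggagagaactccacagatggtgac
Cd79a (chr7:24897247-24897459, plus strand): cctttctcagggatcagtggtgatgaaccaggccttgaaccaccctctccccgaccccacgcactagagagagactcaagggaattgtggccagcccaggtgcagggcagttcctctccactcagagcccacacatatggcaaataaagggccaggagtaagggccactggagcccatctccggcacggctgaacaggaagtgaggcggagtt
Rinl (chr7:28788860-28788968, plus strand): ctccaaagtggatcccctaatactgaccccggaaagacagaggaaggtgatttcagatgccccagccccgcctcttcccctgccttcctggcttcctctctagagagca

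Trim25, which encodes a ubiquitin ligase of antiviral signalling, held the form with 1 outer base missing, 5.5 bp from the centre. Igll1, the λ5 gene of the surrogate light chain, held only the 8-base core, 1 bp from the centre. Cd79a, which encodes the Igα signalling chain, and Rinl, a gene related to Rab GTPase regulators, held none of the 3 forms in these stretches. Within 25 bp of the region's centre, the best 10-base stretch of Cd79a was ACTCAAGGGA, which matched 6 of the 8 fixed bases of the palindrome. That of Rinl was TCCCCTCGGA, which matched 7 and lay downstream of the start, outside the stretch printed above. The promoter window of Rinl ended inside this span, so part of the span could not be read. A match is a description of letters, and its absence says nothing about binding.

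Of the 24 promoter windows over strong loci, 16 held the whole palindrome, a share of 66.7% (95% exact binomial interval 44.7% to 84.4%). Among all 32817 promoter windows of the same length, 0.905% held it. Of the 102 windows over the centres of loci without a strong region, 21.6% held it (14.04% to 30.8%), and of the 57 of these above 100 in both libraries 22.8% (12.7% to 35.8%). CCCNNGGGA or TCCCNNGGG was found in 21 of the 24 windows (87.5%), in 53.9% of the 102 and in 6.56% of all promoters. For the core CCCNNGGG the figures were 22 of 24 (91.7%), 60.8% and 13.7%. Of these sets the strong windows had the highest share for each form, although no test of these differences was run.

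**Figure D1:**
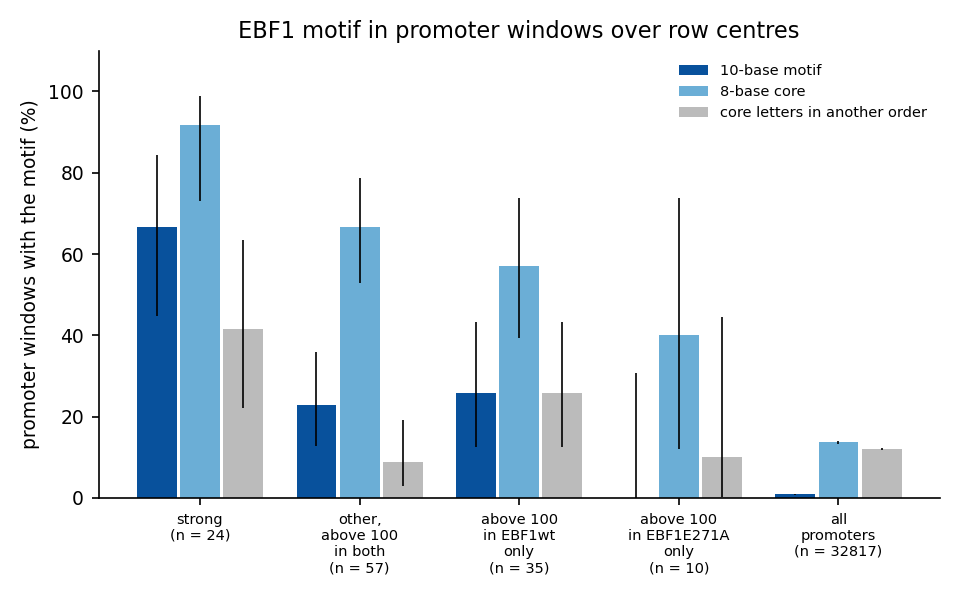
Share of 300-base promoter windows (%) with the 10-base palindrome, the 8-base core and the core letters in another order, for windows over strong loci, over 3 classes of other loci and for all promoters. Bars are shares with 95% exact binomial intervals, and the palindrome stands at 66.7% over strong loci and 0.905% in all promoters.

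Base composition moved with these shares. The median G and C content was 62.2% in the strong windows, 60.7% in the windows over other loci and 52.7% in all promoters. GGGNNCCC, which has the letters of the core in another order and can share bases with a copy of it, was found in 10 of the 24 strong windows (41.7%, 22.1% to 63.4%), in 14.7% of the 102 and in 12.04% of all promoters. It lay within 25 bp of the centre in 4 of the strong windows. The part of base composition in the motif shares was not tested.

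The motif lay near the middle of most of these regions. In the 16 strong windows with the whole palindrome the copy nearest to the centre was at a median of 8.5 bp from it, and in 12 of them within 25 bp. The exceptions were Ppp1r16b, Ppm1a, Tlnrd1 and Mbd6, at 26, 42, 93 and 115 bp. For the 9-base form, 17 of 21 lay within 25 bp, with a median of 6.5 bp. In loci without a strong region the median was 12.5 bp over 54 windows, with 42 within 25 bp. Read the other way, 12 of the 24 strong windows had all 8 fixed bases within 25 bp of the region's centre and 18 of the 24 had at least 7. In the 102 windows over other loci 17.6% had 8 and 61.8% at least 7. Some windows ended inside this span, as at Vps26a, and there only the part within the window could be read. Of all promoters, 0.171% had 8 and 3.26% had at least 7 within 25 bp of the window's own middle.

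**Figure D2:**
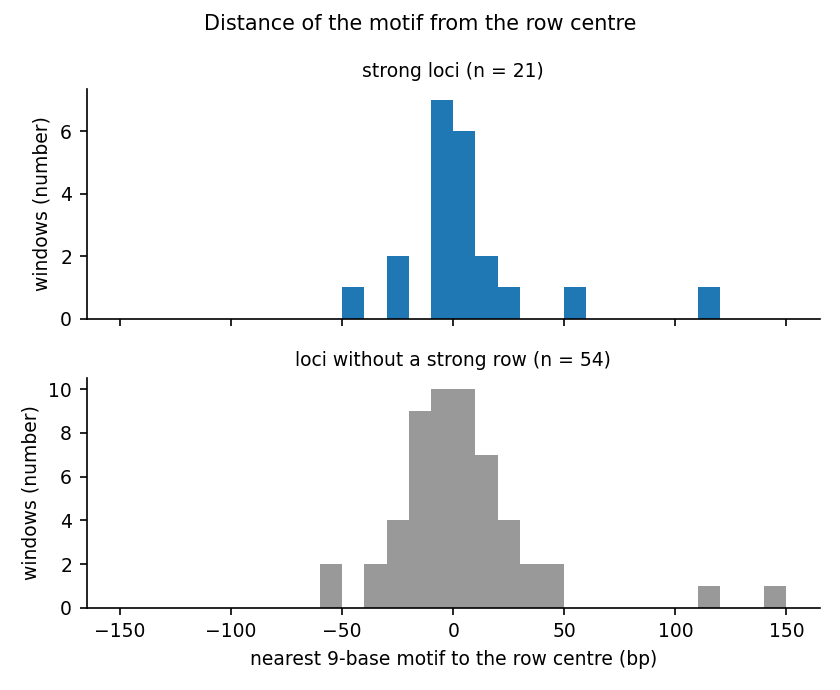
Number of promoter windows by the distance (bp) from the region's centre to the nearest 9-base motif, in bins of 10 bp, for strong loci and for loci without a strong region. In 17 of the 21 strong windows the motif lay within 25 bp of the centre.

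On the spike-in scale, strong promoter sites with the whole palindrome had nearly equal values of both proteins. Ratios are EBF1E271A over EBF1wt throughout. With equal sums of both libraries all log2 ratios moved up by 0.22, so closeness to 1 rests on that scale. In the 16 windows with the palindrome the median ratio was 0.988, with a range of 0.874 to 1.15. In the 8 without it the median was 0.849, with a range of 0.783 to 1.04. The ranges overlap, and 6 of the 8 lay below 0.9 against 2 of the 16. Loci outside the strong set did not show this order: above 100 in both libraries, the median was 0.866 in 13 windows with the palindrome and 0.90 in 44 without it. By the best match within 25 bp of the centre, the contrast among strong windows was less regular. The median ratio was 0.971 in 12 windows with all 8 fixed bases and 0.872 in 6 with 7. It was 0.906 in 4 windows with 6 and 1.06 in 2 with 5. As the values of both libraries chose the strong sites, these contrasts were not tested.

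**Figure D3:**
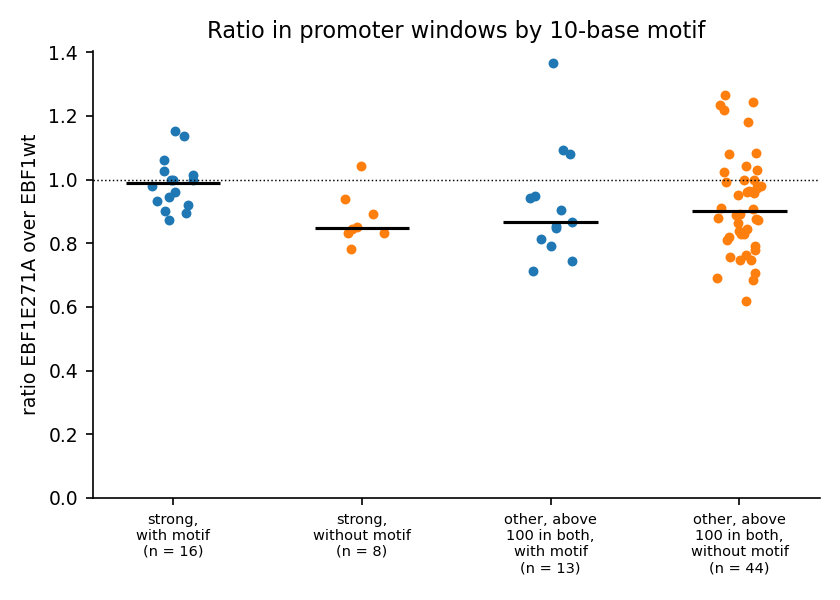
Ratio of EBF1E271A over EBF1wt on the spike-in scale at loci over promoters, for strong loci and for other loci above 100 in both libraries. Each set is split into promoter windows with and without the 10-base palindrome. Points are loci and lines are medians, 0.988 and 0.849 for the strong loci and 0.866 and 0.90 for the others.

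At strong sites the scaled counts of both proteins followed each other closely. The median over the 801 regions was 296 for EBF1wt (quartiles 250 and 381) and 274 for EBF1E271A (237 and 347). Before scaling, these were medians of 187 and 433 reads, with at least 127 and 317 reads per region. The median ratio was 0.938 (95% binomial interval of the median 0.925 to 0.947), against 0.901 over all regions. That interval treats the overlapping regions of a locus as separate, so it is too narrow. With each locus counted once the median was 0.939 (0.917 to 0.954), against 0.896 over all loci. Ratios lay below 1 at 544 of the 801 regions (67.9%), beside 66.8% of all regions. The SD of the log2 ratio was 0.26 over the strong regions and 0.46 over all regions. Part of this narrow spread follows from the rule, which asks for a high value in both libraries. The position relative to 1 rests on the human spike-in: with equal sums of both libraries the median log2 ratio of the strong regions was 0.13, instead of -0.09.

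With calls set at 1.5-fold, taken on log2(value + 1), 29 of the 801 strong regions (17 of the 407 loci) were lower in EBF1E271A, and 0 were higher. Over all regions, 13.4% were lower and 2.96% higher by this rule. Over all loci the shares were 14.1% and 3.11%. At 2-fold, 12 strong regions (9 loci) were lower and 0 higher, where all regions had 4.06% and 0.632% and all loci 4.48% and 0.849%. As the rule for strong sites used this contrast, nothing is read from the comparison. With equal sums, 19 strong regions were lower and 20 higher. The 95% intervals given with single ratios are exact binomial (Clopper-Pearson), come from the unscaled reads and cover counting error only, without the error of the spike-in scale.

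**Figure D4:**
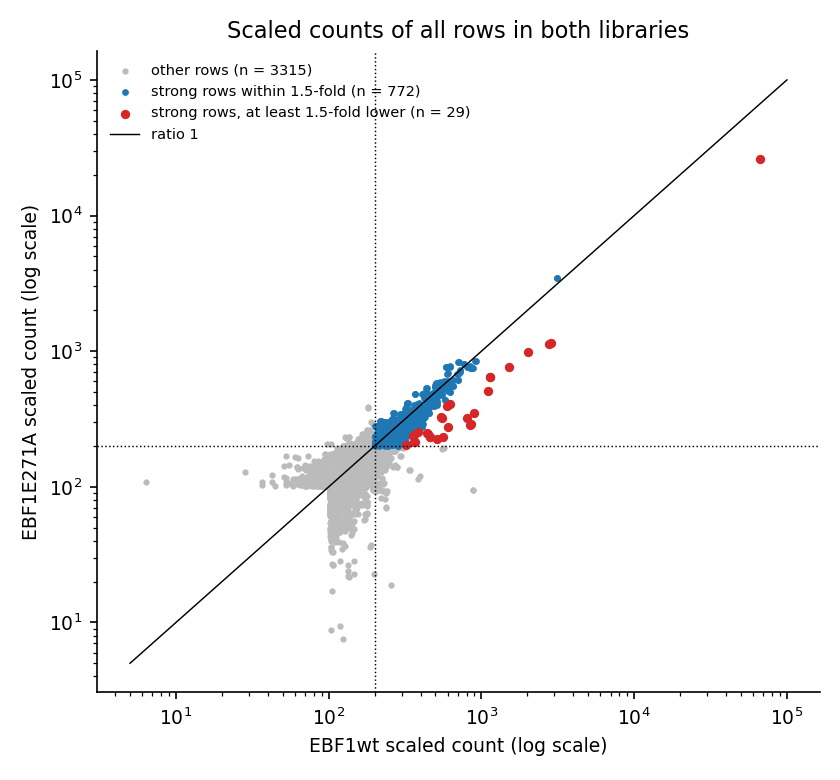
Scaled count of EBF1E271A against EBF1wt for each of the 4116 regions, on log axes, with dotted lines at 200 and a solid line at ratio 1. The 801 strong regions lie along the line, and the 29 that were at least 1.5-fold lower in EBF1E271A extend to the highest EBF1wt values.

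The edge of the set is not a gap in the data. The 5 lowest members by the smaller value are 9 with ties. They lay in Rasa4 (286 for EBF1wt, 200.5 for EBF1E271A), near Wdr81 (245 and 200.5), in the fatty acid desaturase gene Fads2 (232 and 200.5), at Cd22 (200.8 and 200.5), in the T lineage factor gene Tox (200.8 and 201.8), near Cep19 (200.8 and 205.6), in Cxxc5 (200.8 and 208.7), in the gene model LOC108168726 (200.8 and 233) and in Fam114a1 (200.8 and 280). Just outside lay 2 regions in the selectin gene Selp (250 and 199.9, 248 and 199.2), 1 in Tspear (277 and 199.2), 1 in Ptp4a3 (261 and 199.2) and the second region at Fads2 (232 and 199.9), which overlaps the member there. The smaller values on either side of 200 differ by less than their counting error.

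On the scaled counts the loci of highest mean value fell into a group with near-equal values and a group much lower in EBF1E271A. Of the 12 loci of highest mean value, 6 had a ratio below 0.6, among them the chromosome 2 locus with no gene nearby (chr2:98666651-98666950), where EBF1wt had 66811 and EBF1E271A 26048. This region alone made up 19.0% of the EBF1wt sum over strong regions and 9.08% of that of EBF1E271A. The others of this kind were 64.4 kb from Sh3gl3, inside Slc25a26, which encodes a mitochondrial carrier, and at 3 loci of chromosomes 3 and 17 without a protein-coding gene within 100 kb. Reads before scaling were 42256 and 41183 at the chromosome 2 locus, 1797 and 1806 near Sh3gl3, and 724 and 1026 inside Slc25a26. The chromosome 17 loci had 1274 and 1555, and 965 and 1209, and that of chromosome 3 had 700 and 801. Over all strong regions the medians were 187 and 433 reads. Input values were not analysed, so whether the signal at these low-ratio loci depends on the antibody was not tested. Whether it is EBF1 occupancy was therefore not tested either. The other 6 of the 12 had ratios of 0.862 to 1.104. The highest of them, 3124 and 3450, was nearest to Mib1, a ubiquitin ligase gene of Notch ligand endocytosis that was on no list, but lay 99.9 kb from it. The remaining 5 lay beside Ccdc184, 13.1 kb from Tmem64, inside Sh2b3, which encodes an adaptor that restrains cytokine signalling, 64.9 kb from the Mediator gene Med13l, and at a chromosome 8 locus with no gene nearby. At the Sh2b3 locus (chr5:121833853-121834152) EBF1wt had 851 and EBF1E271A 756.

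Of the 17 loci at least 1.5-fold lower in EBF1E271A, 13 had an EBF1wt value of at least 500, as had 53 of all 407. A locus can have a low ratio and still pass 200 in EBF1E271A only if its EBF1wt value is high, so the rule itself favours this. The lowest ratios that belong to named genes were 77.8 kb from Lgalsl (854 and 290, ratio 0.340, 0.300 to 0.386), 61.1 kb from Axin2, which encodes a Wnt pathway scaffold (896 and 351, ratio 0.392, 0.348 to 0.441), and 64.4 kb from Sh3gl3 (0.402, 0.376 to 0.429). A locus inside the overlapping genes Cmss1 and Filip1l followed (802 and 324, ratio 0.404, 0.357 to 0.458). Reads before scaling at these loci, in the same order, were 540 and 459, 567 and 555, 1797 and 1806, and 507 and 512. On the spike-in scale 1 read counted 1.5811 for EBF1wt and 0.6325 for EBF1E271A. Equal reads thus already give a ratio more than 2-fold lower on that scale. With equal sums of both libraries all log2 ratios rose by 0.22, and the loci just named stayed more than 1.5-fold lower. Over all strong regions the medians were 187 and 433 reads. The locus 22.3 kb from Cux1, a homeobox gene, had 558 and 232 (353 and 367 reads). Beside it on chromosome 5, between 130 and 140 Mb, lay 7 strong loci in all, with a median ratio of 0.801, against 0.941 at the strong loci elsewhere. Of these 7, 2 were at least 1.5-fold lower. Of the 17, 5 lay inside a gene body.

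No strong locus was 1.5-fold higher in EBF1E271A. The highest ratios were found inside Ostf1 (220 and 307, ratio 1.40, 1.16 to 1.70), inside Fam114a1 (200.8 and 280, ratio 1.40, 1.14 to 1.71) and 50.6 kb from Irf2bpl (220 and 304, ratio 1.38). They were followed by Mrps23 and Rprd1b, at 1.35 each. A site inside Ciita, which encodes a coactivator of MHC class II transcription, had 368 for EBF1wt and 482 for EBF1E271A (1.31, 1.13 to 1.52). Apart from Ciita, these loci stood near the threshold in EBF1wt, at 205 to 220 or just above 200.

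Strong sites were found near genes of each B lineage list. The nearest genes of all strong loci numbered 376, of 1655 genes nearest to any locus (22.7%). Of 341 listed genes, 105 were nearest to a locus and 29 to a strong one (27.6%), over 31 strong loci. In none of the 31 was EBF1E271A 1.5-fold lower or higher. The counts below describe which genes the strong set holds and say nothing of their expression.

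Among chains and signalling genes of the pre-B cell receptor, 7 of the 21 genes with a locus had a strong one. At the promoter of Igll1 (chr16:16864062-16864361, centre 0.226 kb upstream of the start) EBF1wt had 433 and EBF1E271A had 361 (ratio 0.834, 0.721 to 0.966). At that of Cd79a (chr7:24897160-24897459, 0.188 kb upstream) they were 283 and 235 (0.831, 0.694 to 0.999). At that of Pik3ap1 (chr19:41385279-41385578, 0.326 kb upstream), which encodes an adaptor that links the receptor to PI 3-kinase, they were 294 and 223 (0.757, 0.632 to 0.909). EBF1wt was the higher value at these 3 promoters on the spike-in scale, and none reached 1.5-fold. At the other 4 sites EBF1E271A was the higher value, but the interval of each ratio held 1. Inside Plcg2, which encodes phospholipase C gamma 2, the values were 240 and 244 (0.838 to 1.23). Those inside the scaffold gene Bank1 were 274 and 314 (0.965 to 1.37). They were 522 and 579 (0.978 to 1.26) at 37.3 kb from Nfatc2, a calcium-regulated factor gene. At 9.77 kb from Vpreb2, which encodes a surrogate light chain part, they were 250 and 293 (0.977 to 1.41).

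Of the B cell surface receptor genes, 6 of the 18 with a locus had a strong one. Inside Itgam, which encodes the integrin chain CD11b, the values were 707 and 615 (ratio 0.870, 0.777 to 0.975). Beside Cd40, which encodes a receptor for T cell help, the site lay 0.342 kb away, with 319 and 314. The site 2.68 kb from Tnfrsf13c, the BAFF receptor gene, had 262 and 287. The promoter of Cd22, with its whole palindrome, was the weakest of all 407 by mean value, at 200.8 and 200.5. The site assigned to Cd24a, a surface glycoprotein gene, lay 56.2 kb away, with 416 and 334 (0.803, 0.691 to 0.935).

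B lineage transcription factor genes had 4 of 16 genes with a strong locus. Erg, an ETS factor gene of blood stem and progenitor cells, held 2 sites 1.61 kb apart, with 414 and 483 (ratio 1.17, 1.01 to 1.35) at the first and 258 and 268 at the second. The site inside Pax5 (chr4:44706010-44706309) lay 4.54 kb downstream of a start, with 330 and 305 (ratio 0.923, 0.783 to 1.09). The site assigned to Runx1 lay 95.9 kb from the gene, with 248 and 220. Ciita is given above.

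Other lists held strong sites at 0 to 3 genes each. Of T lineage genes with a locus, 3 of 5 had a strong one. Upstream of Tcf7, which encodes TCF1, an early T lineage factor induced by Notch, the site lay 0.101 kb from the gene, with 251 for EBF1wt and 290 for EBF1E271A (1.15, 0.960 to 1.39). The others were inside Tox (200.8 and 201.8) and 70.9 kb from Satb1 (264 and 221), a genome organiser gene. Of 10 Notch pathway genes with a locus only Maml1, a coactivator of NICD1, had a strong one, with 315 and 304. The only gene of the myeloid and innate lymphoid list was Itgam, which is also on the surface receptor list. Of 4 stroma and adipocyte genes with a locus, listed because the cells had grown on OP9 feeder cells, 3 had a strong one, near Adipoq (289 and 290) and Dlk1 (450.6 and 412) and inside Zfp423 (215 and 229). Zfp423 encodes a protein that binds EBF1. Of the 3 housekeeping genes with a locus none had a strong one.

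Of cell cycle and survival genes, Bcl2l1, which encodes Bcl-xL, and Bcl2 had strong sites, 2 of 6. The site inside Bcl2l1 had 381 and 257, and its ratio of 0.674 (0.573 to 0.794) was the lowest of the listed genes. The site inside Bcl2 had 296 and 269. Sipa1, a Rap GTPase-activating gene, was the only gene of 13 in the list of small GTPase regulators (272 and 206). Rad51b was the only gene of 2 in that of recombination and repair (215 and 244).

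**Figure D5:**
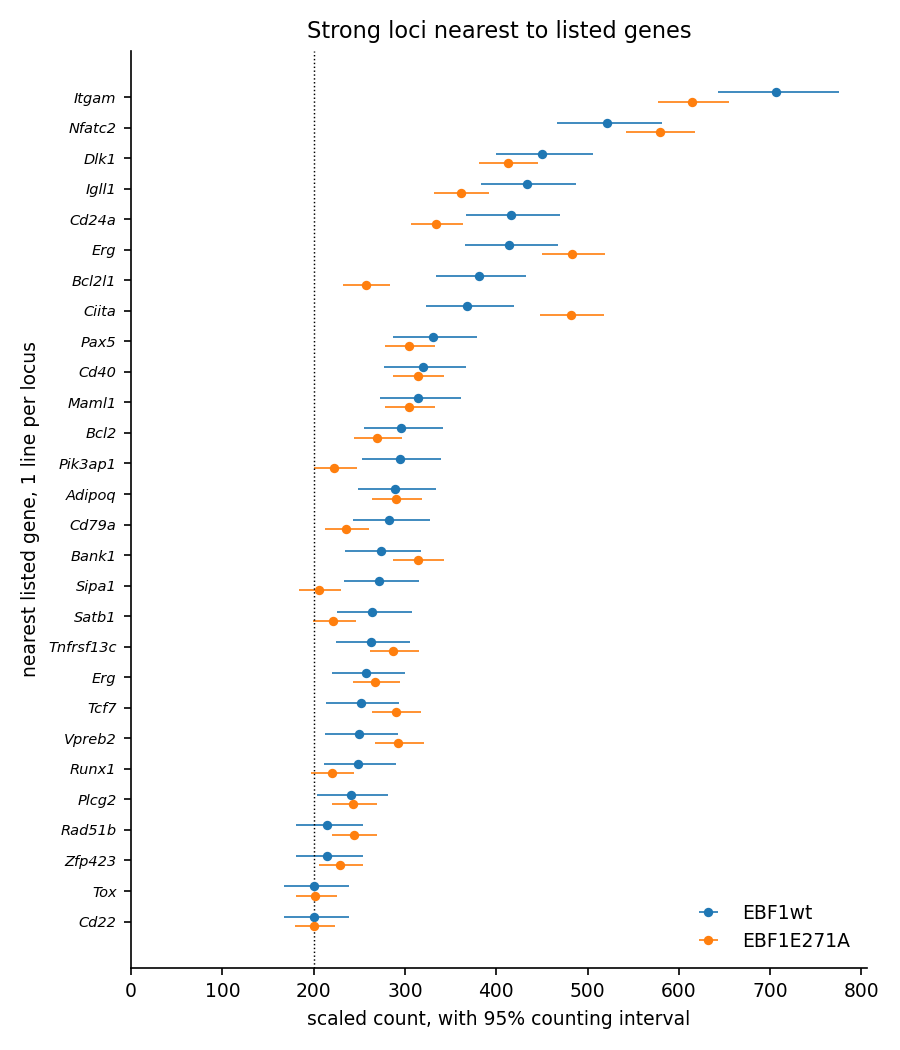
Scaled counts of EBF1wt and EBF1E271A at 28 of the 31 strong loci whose nearest gene is on a list, ordered by the EBF1wt value, with 95% Poisson counting intervals and a dotted line at 200. The EBF1E271A point lies to the right at Ciita (482 against 368) and furthest to the left at Bcl2l1 (257 against 381).

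Further B cell genes were noted after the values were seen. At Vpreb3, which encodes a chaperone of surrogate light chain assembly, the site lay 0.153 kb from the gene end, with 250 and 230 (ratio 0.922, 0.763 to 1.12). Inside Mzb1, a cochaperone gene of the B cell endoplasmic reticulum, the values were 286 and 294. Genes of phosphoinositide signalling recurred: 0.916 kb from Pik3r5 the values were 525 and 565, 4.23 kb from Pik3cg 342 and 264, inside Pik3c2b 289 and 207, and inside Plcl1 416 and 347 at the first of 2 sites and 225 and 234 (ratio 1.04) at the second. The ratio was below 0.8 at Pik3cg (0.774) and Pik3c2b (0.717), as at Pik3ap1. Of the Groucho family of corepressors, Tle3 was nearest to 2 sites (ratios 1.1 and 1.14) and Tle5 to 1 (0.878). Near the signalling regulators Traf3 and Socs1 and inside Foxp1, a B cell transcription factor gene, ratios were 1.04, 1.01 and 1.08. These groups were picked by eye and were not set against other genes.

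Ranking gene-end sites by the smaller of both values itself favours near-equal ratios, so nothing about gene ends is read from them. The top sites had near-equal values on the spike-in scale. In the order of their smaller value, those given here lay beside Ccdc184 (874 and 754), Hip1r (721 and 720), Rtca (655 and 615), Irgc1 (604 and 687), Hdlbp (591 and 599), Trim25 (653 and 557), Mphosph8 (582 and 543), Pik3r5 and Slc17a9 (511 and 493). Their ratios ran from 0.852 at Trim25 to 1.14 at Irgc1. Hip1r, Hdlbp and Mphosph8 held the whole palindrome in the promoter window, while Rtca, an RNA cyclase gene, and Trim25 held the 9-base form.

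The share inside gene bodies was lower among strong loci than among the others. Of the 407, 63 (15.5%, 12.1% to 19.4%) lay at a gene end, that is no further than 1 kb from the first or last base of a protein-coding gene, beside 14.8% of the 1714 loci without a strong region. Inside a gene body lay 195 (47.9%, 43.0% to 52.9%), beside 55.4% (53.0% to 57.8%) of those loci, and this difference was not tested. At a threshold of 300 the share inside genes was 41.5%. Of the strong loci, 22 (5.41%) had no protein-coding gene within 100 kb, beside 6.07%. Strong loci made up 19.2% of all loci. Over the autosomes the share ran from 14.6% on chromosome 14 to 30.7% on chromosome 16, where 23 of 75 loci were strong. On chromosome X it was 0 of 13, which allows a share of up to about 23.1% by an approximation, not by the exact interval used above.

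Few strong loci stood close together. Another strong locus lay within 50 kb of 41 of them and within 10 kb of 16, and the median distance to the next was 790 kb. Hand1 was the only gene nearest to 3 strong loci, and 14 genes were nearest to 2. The Hand1 loci, 36.8 to 63.6 kb from this heart factor gene, had ratios of 1.08, 0.818 and 0.798. Pairs 1.54 to 1.93 kb apart lay at Scd1 (ratios 0.757 and 0.851), Erg and Lrrc32 (0.793 and 0.873). The Igll1 promoter lay 32.0 kb from a strong site at Ppm1f, a phosphatase gene, with nearly the same values (436 and 368). Neighbours with ratios on opposite sides of 1 were found at Hand1, and also at Mesd, a gene of LDL receptor maturation (1.15 and 0.877, 7.47 kb apart). The Mesd locus with ratio 1.15 is the one whose promoter window is named Tlnrd1 above.

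The 2 regions of a strong locus were almost superimposed. Their starts differed by a median of 12.5 bp (quartiles 6 and 23) over 394 pairs, and by at most 25 bp in 78.7% (74.3% to 82.6%). In the 1595 pairs without a strong region the median was 16 bp, with 70.0% (67.7% to 72.2%) within 25 bp. Higher read numbers at strong sites moved with this closeness, and their part in it was not tested. The library from which each region was drawn was not given in the sources used here.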

How the data were processed

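The files hold 1 signal value for each ChIP library and region, which the column headings of the deposited table call scaled counts; human spike-in chromatin served for normalization, per the labels' protocols. The deposited list of positions (start and end) holds the same 4116 regions. Tools named in the submitters' processing notes are MACS2 2.2.7.1 and Bowtie2 2.3.5.1, deepTools 3.5.0 and 3.3.2, SAMtools 1.10 and bedtools 2.27.0, with the builds GRCm38, mm10, GRCh38 and hg19. How regions were called and how the scale was set was not given in the sources used here.

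Every value was a whole multiple of 1.5811 (EBF1wt) or 0.6325 (EBF1E271A) within 0.001 counts, and dividing gave unscaled reads, 515897 and 1105818 over all regions. Reads in overlapping regions count in each. PCR copies are not separate molecules, so intervals cover counting error only. Starts were taken as counted from 0 and are printed from 1.

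Regions sharing a base formed a locus. Genes and promoters came from RefSeq tables of GRCm38.p6 with 21900 protein-coding genes. No test between the proteins was run, as each had 1 library. Alternatives were other thresholds, equal library sums, windows and motif forms. Scripts (Python 3.11.15, pandas 2.3.3, SciPy 1.17.1) were tested on simulated data.

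The members and lists were chosen with earlier results of these data known. Named loci were the 12 of highest mean, the 6 of lowest and of highest ratio, 5 to either side of the threshold with ties, those nearest to listed genes, the 10 strongest at gene ends and genes nearest to 3 or more. Other genes are said in the text to have been picked after the values were seen. Some loci that this rule names are not reported here.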

Additional observations from a re-analysis of the deposited data

How the results depend on the processing

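With 300 in both libraries as the threshold the set held 282 regions (147 loci) and 12 listed genes, with 150 it held 1453 regions (746 loci) and 49 listed genes, and with 400 it held 117 regions. With unscaled reads of 200 or more in both it held 338. Equal sums of both libraries gave 822 regions, 755 of them in the set as described, and turned the median log2 ratio around, from -0.09 to 0.13 (all log2 ratios moved by 0.22). Which scale is right was not tested. The count at least 1.5-fold lower in EBF1E271A was 19 with equal sums, 17 with each locus counted once and 12 by a 2-fold rule, against 29, and the count higher was 20 with equal sums, against 0. The share within 1 kb of a gene end, 15.5%, was 25.6% within 2.5 kb, 34.4% within 5 kb and 20.4% at a threshold of 300, where the share inside genes was 41.5%. The share of strong promoter windows with the motif was 91.7% for the core and 66.7% for the whole palindrome. Listed genes with a strong locus, 29 in all, were 24 within 10 kb and 42 when any gene within 50 kb counted. Of 37 values under another setting, 19 stayed within 1.5-fold (counts) or within the interval of the main value (shares, median), 17 moved further and 1 reversed. Settings chosen after seeing the data were each locus once for the fold counts, the median without chromosome 5 from 130 to 140 Mb, which kept its value (-0.09), and the reordered motif. No paired analysis was possible because each group had 1 library. Depth limits single loci: at 127 reads, the lowest EBF1wt number of the set, ratios near 1 cannot be told from 1.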
